A study of Mus musculus with 9 samples.

Results

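The cell cycle and DNA replication genes described here are 40 genes, found by their gene names among the 54532 rows of a table of mouse gene expression, and all 40 were present. They were split into 13 genes of G1 and S phase, when a cell commits to division and copies its DNA, and 27 genes of G2 and mitosis, when it prepares for and carries out division. The RNA came from flat mounts of choroid and retina of C57BL/6 mice, sequenced as 3 groups of 3 libraries. The untreated group consisted of mice with no treatment named. The CNV group carries the title wet AMD, the form of age-related macular degeneration with choroidal neovascularisation, in which vessels grow from the choroid beneath the retina. The BetP-Gel@Ran group was taken 3 months after BetP-Gel was put into the vitreous; Ran in its name stands for ranibizumab, which binds vascular endothelial growth factor A. Its treatment label names the gel alone and does not say whether these mice had CNV. Age, the way CNV was produced, the sampling time of the other groups and the number of mice behind a library are not given in the sources used here, and time cannot be told apart from treatment. The labels do not tie replicates to different mice, so the p-values below are set by how far these libraries scatter, and that scatter may be technical only.

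Cells that re-enter the cycle first raise D-type cyclins, which with their kinases release E2F transcription factors from the retinoblastoma protein. E2F then switches on cyclin E and the genes that copy DNA, among them the MCM helicase, the sliding clamp PCNA and the enzymes that make deoxynucleotides. A later wave, bound by a complex of B-MYB, FOXM1 and MuvB proteins, supplies cyclin B, its kinase CDK1 and the parts of the spindle and kinetochore. Photoreceptors and other neurons of the adult mouse retina do not divide, whereas basal cells of the surface epithelium, leukocytes, vessel cells and pigment epithelium can.

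The 2 waves are known for different promoter elements, so their promoters are shown first. RefSeq windows on GRCm38.p6 (the build also called mm10), from 250 bases before to 50 after a start, were matched for 11 of the 13 G1 and S phase genes and 21 of the 27 G2 and mitosis genes. The letters TTTGAA of the cell cycle homology region (CHR), on either strand, stood in the windows of 16 of those 21 genes and 1 of those 11, against 20.2% of 27025 genes. CCAAT, on either strand, stood in 18 of 21 and 7 of 11, against 41.1% of all genes. The E2F letters TTTCCCGC, TTTCGCGC, TTTGCCGC and TTTGGCGC, which can overlap each other on opposite strands, stood in 1 of 21 and 4 of 11, against 2.6% of all genes. In a wider list of 35 matched mitosis genes that are not members, CHR letters stood in 24, and in 26 matched DNA replication genes E2F letters stood in 11. A match describes letters only and is not a bound site. Windows of some members that hold CHR or E2F letters follow as examples, 5′ to 3′, from 200 bases before to 30 after the start. The letters of all 3 motifs are in capitals. They are Mki67 (chr7:135716350-135716579, minus strand), Cdk1 (chr10:69352883-69353112, minus strand) and Cenpa (chr5:30666686-30666915, plus strand) of mitosis, and Mcm5 (chr8:75109309-75109538, plus strand) and Mcm6 (chr1:128359676-128359905, minus strand) of S phase.
Mki67: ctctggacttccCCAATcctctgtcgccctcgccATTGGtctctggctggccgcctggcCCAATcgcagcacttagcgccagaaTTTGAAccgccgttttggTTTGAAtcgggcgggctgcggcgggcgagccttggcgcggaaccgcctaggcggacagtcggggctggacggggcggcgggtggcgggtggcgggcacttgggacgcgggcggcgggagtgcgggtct
Cdk1: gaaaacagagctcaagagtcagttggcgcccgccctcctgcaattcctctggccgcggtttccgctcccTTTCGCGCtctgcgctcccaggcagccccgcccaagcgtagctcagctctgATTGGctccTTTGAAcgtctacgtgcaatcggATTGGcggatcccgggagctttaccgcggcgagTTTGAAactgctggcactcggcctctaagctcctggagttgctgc
Cenpa: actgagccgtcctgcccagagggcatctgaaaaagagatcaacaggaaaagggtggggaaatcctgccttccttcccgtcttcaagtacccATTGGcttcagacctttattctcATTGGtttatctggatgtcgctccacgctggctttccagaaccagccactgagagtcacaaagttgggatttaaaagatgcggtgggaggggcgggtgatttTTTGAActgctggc
Mcm5: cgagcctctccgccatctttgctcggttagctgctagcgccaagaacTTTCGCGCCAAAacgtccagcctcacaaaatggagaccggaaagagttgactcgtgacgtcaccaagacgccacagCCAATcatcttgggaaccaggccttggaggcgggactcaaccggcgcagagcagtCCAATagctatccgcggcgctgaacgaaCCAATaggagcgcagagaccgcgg
Mcm6: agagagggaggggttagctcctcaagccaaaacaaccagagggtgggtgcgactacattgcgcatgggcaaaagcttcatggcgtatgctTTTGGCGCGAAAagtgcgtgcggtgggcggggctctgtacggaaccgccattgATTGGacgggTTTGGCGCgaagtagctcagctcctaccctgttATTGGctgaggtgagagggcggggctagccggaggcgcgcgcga
The mitosis windows printed here hold TTTGAA, 2 times in Mki67 and 2 times in Cdk1, with CCAAT on either strand upstream of at least 1 of them. In Mcm5 and Mcm6 E2F letters of both strands overlap, Mcm6 holds E2F letters at another place as well, and neither window holds TTTGAA. Cdk1 is the mitosis member that also holds E2F letters. Other members did not follow this split. The windows of Bub1 and Ccnb1, among others of mitosis, hold no TTTGAA, and that of Mcm2 holds it. As only 4 of the 11 matched G1 and S phase genes hold E2F letters, most do not, Pcna among them.

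**Figure D1:**
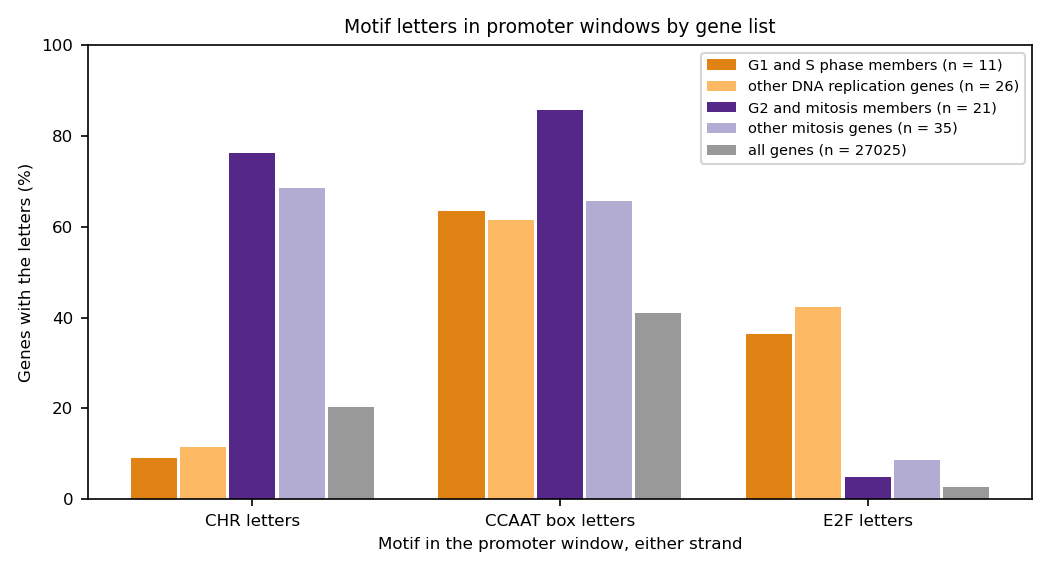
Share of genes (y axis, percent) whose RefSeq promoter window holds the letters of each motif on either strand (x axis), for the 2 sets of members, the 2 wider lists and all genes. CHR letters stand in 76.2% of G2 and mitosis members and 9.09% of G1 and S phase members, and E2F letters in 4.76% and 36.4%.

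The libraries held 16990118 to 18753737 reads on genes, recovered from the FPKM (fragments per kilobase of gene length, scaled to the depth of the library) and the gene lengths. Rod and pigment epithelium markers were present, with the pigment epithelium gene Rpe65 at 59.5, 66.6 and 112 FPKM in the untreated libraries. Genes of the surface epithelium were abundant too, with the corneal keratin gene Krt12 at 5314, 4319 and 4399 FPKM, although the labels name choroid and retina. All 40 members passed the only filter on low values, a mean of at least 0.1 FPKM over all 9 libraries, and the smallest read count behind a member's value was 18, in Cdc25c. In the untreated group 10 of the 40 had a mean under 1 FPKM, all of them genes of G2 and mitosis. Differences are on the scale of log2(FPKM + 0.1), which somewhat understates the change of the lowest genes, and were tested with limma over 20482 genes with Benjamini-Hochberg adjustment at 0.05. A gene under that threshold is said to be called. The words rose and fell compare groups of libraries and do not mean a change followed over time in the same mice.

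Cell cycle genes were higher in CNV than in untreated libraries, with a larger median difference among mitosis genes than among S phase genes. Of the 40 members, 32 rose and none fell, while 17.8% of all genes tested were called higher and 16.9% lower. Of 27 genes of G2 and mitosis, 24 rose, and the median difference over all 27 was 1.32 on the log2 scale. Of 13 genes of G1 and S phase, 8 rose, with a median of 0.58. The median over all genes tested was 0.0064. In 33 of the 40 every CNV library lay above every untreated library, which held for 24.1% of all genes in that direction. In bulk RNA, more dividing cells and more RNA per dividing cell cannot be told apart. The difference between the medians of the 2 sets was not tested.

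**Figure D2:**
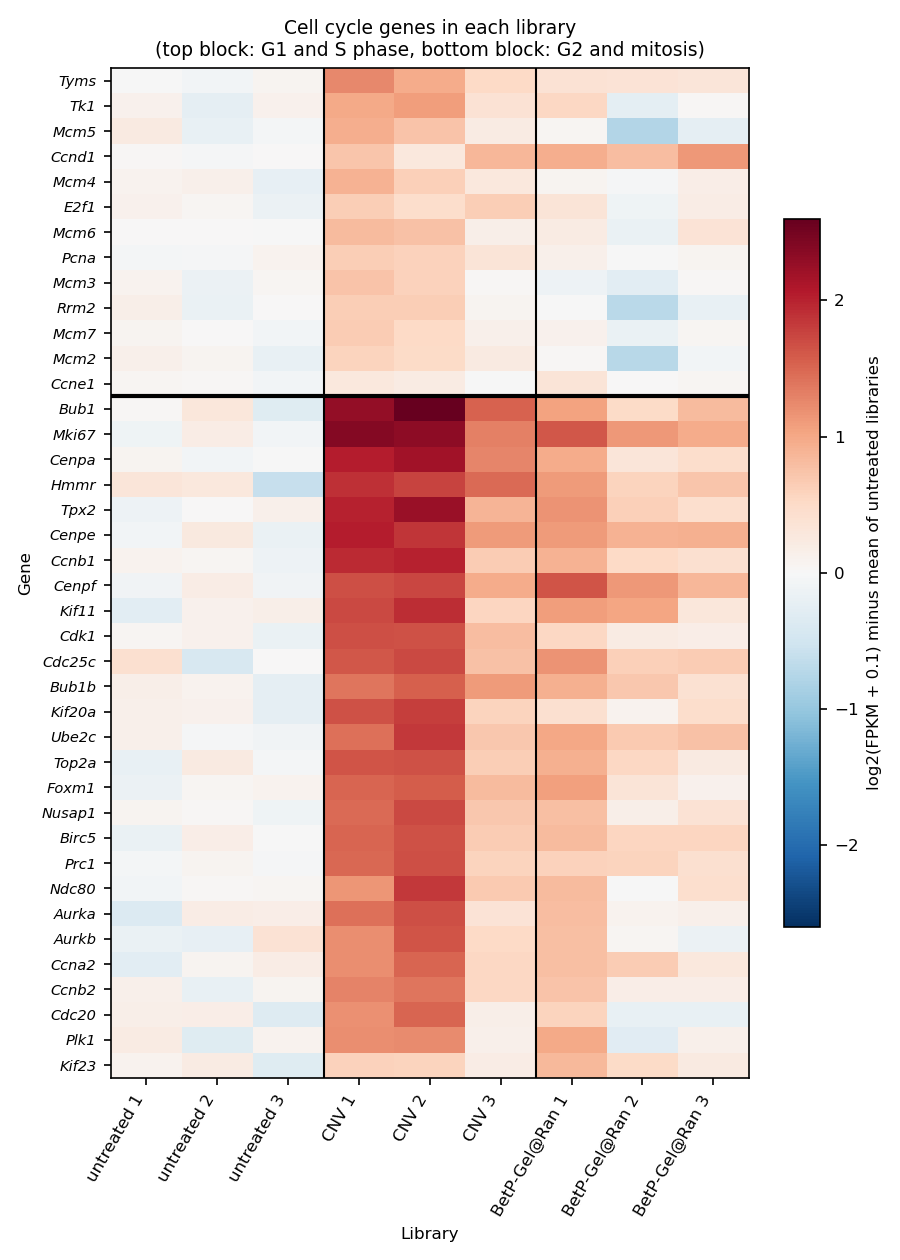
Each of the 40 genes (y axis) in each of the 9 libraries (x axis), as log2(FPKM + 0.1) minus the gene's mean over the 3 untreated libraries, with G1 and S phase genes above the thick line and G2 and mitosis genes below it. CNV replicates 1 and 2 are the darkest columns, CNV replicate 3 is paler, and the lower block is darker than the upper block in the CNV columns.

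Among the mitosis genes, markers of division and the genes of the cyclin B kinase rose. Mki67, which encodes the Ki-67 protein that coats mitotic chromosomes (ENSMUSG00000031004, mm10 chr7:135689784-135716361), measured 0.498, 0.638 and 0.517 FPKM in untreated replicates 1 to 3, 3.30, 3.15 and 1.51 in the CNV and 1.88, 1.32 and 1.17 in the BetP-Gel@Ran replicates. Its CNV values lay above all untreated ones, and the difference was 2.01 ± 0.29 (SE, limma adjusted p = 0.000842) on the log2 scale. Top2a, the topoisomerase that untangles replicated DNA, measured 1.92, 2.60 and 2.14 FPKM in untreated replicates 1 to 3, 7.09, 7.14 and 3.50 in the CNV and 4.25, 3.22 and 2.61 in the BetP-Gel@Ran replicates, and rose by 1.31 ± 0.28 (SE, limma adjusted p = 0.00594). Cdk1, the kinase that drives entry into mitosis (ENSMUSG00000019942, mm10 chr10:69335146-69352938), measured 2.78, 2.88 and 2.36 FPKM in untreated replicates 1 to 3, 8.78, 8.57 and 4.74 in the CNV and 3.92, 3.12 and 2.99 in the BetP-Gel@Ran replicates, and rose by 1.38 ± 0.22 (SE, limma adjusted p = 0.00147). Its partner Ccnb1, cyclin B1, measured 1.84, 1.80 and 1.57 FPKM in untreated replicates 1 to 3, 6.91, 7.20 and 2.78 in the CNV and 3.36, 2.54 and 2.36 in the BetP-Gel@Ran replicates, and rose by 1.53 ± 0.32 (SE, limma adjusted p = 0.00542). For each of these 4 genes, CNV replicate 3 was the lowest of its group and still above every untreated library. The other cyclins of this phase, Ccna2 and Ccnb2, rose by 1.08 and 1.07, and Foxm1, the transcription factor of the mitotic wave, by 1.30. Cdc25c, the phosphatase that activates CDK1, rose by 1.36.

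Kinetochore and checkpoint genes included the largest difference. Bub1, a spindle checkpoint kinase gene (ENSMUSG00000027379, mm10 chr2:127801122-127831865), measured 0.460, 0.569 and 0.342 FPKM in untreated replicates 1 to 3, 2.56, 3.29 and 1.49 in the CNV and 1.04, 0.674 and 0.865 in the BetP-Gel@Ran replicates, and rose by 2.15 ± 0.29 (SE, limma adjusted p = 0.000601), more than any other member. Cenpa, the histone variant gene that marks centromeres (ENSMUSG00000029177, mm10 chr5:30666777-30674830), measured 1.75, 1.60 and 1.67 FPKM in untreated replicates 1 to 3, 7.23, 7.94 and 4.18 in the CNV and 3.38, 2.09 and 2.32 in the BetP-Gel@Ran replicates, and rose by 1.84 ± 0.24 (SE, limma adjusted p = 0.000527). Bub1b, whose product BUBR1 holds back anaphase (ENSMUSG00000040084, mm10 chr2:118598211-118641591), measured 2.54, 2.42 and 1.93 FPKM in untreated replicates 1 to 3, 6.15, 6.90 and 5.03 in the CNV and 4.41, 3.75 and 3.04 in the BetP-Gel@Ran replicates, and rose by 1.35 ± 0.17 (SE, limma adjusted p = 0.000384). In these 3 genes no CNV library overlapped the untreated or the BetP-Gel@Ran libraries. Cenpe, the kinetochore motor gene, measured 0.294, 0.392 and 0.266 FPKM in untreated replicates 1 to 3, 1.60, 1.41 and 0.796 in the CNV and 0.794, 0.675 and 0.683 in the BetP-Gel@Ran replicates. Cenpf, another kinetochore gene, measured 0.168, 0.226 and 0.169 FPKM in untreated replicates 1 to 3, 0.818, 0.849 and 0.462 in the CNV and 0.788, 0.528 and 0.420 in the BetP-Gel@Ran replicates. They rose by 1.67 and 1.46, from levels under 1 FPKM. Ndc80, the microtubule coupler of the kinetochore, rose by 1.22.

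Spindle and exit genes rose too, apart from 3 that were not called. Hmmr, a spindle assembly gene, measured 0.673, 0.653 and 0.308 FPKM in untreated replicates 1 to 3, 2.21, 1.99 and 1.63 in the CNV and 1.24, 0.826 and 0.921 in the BetP-Gel@Ran replicates, and rose by 1.71 ± 0.27 (SE, limma adjusted p = 0.00128). Ube2c, the ubiquitin-conjugating enzyme of the anaphase-promoting complex, measured 4.89, 4.35 and 4.19 FPKM in untreated replicates 1 to 3, 12.3, 16.2 and 7.34 in the CNV and 9.13, 7.22 and 7.68 in the BetP-Gel@Ran replicates, and rose by 1.32 ± 0.24 (SE, limma adjusted p = 0.0027). Tpx2, Kif11, Nusap1 and Prc1, which build or bundle spindle microtubules, rose by 1.71, 1.40, 1.30 and 1.25. Kif20a, a kinesin of the central spindle, rose by 1.34. Birc5 and Aurkb, parts of the chromosomal passenger complex, rose by 1.27 and 1.12, and the spindle pole kinase gene Aurka by 1.16. Not called were Cdc20, the activator of the anaphase-promoting complex, at 7.38 ± 1.39 FPKM (SD, n = 3) in untreated and 15.3 ± 6.57 in CNV libraries, Plk1, the polo-like kinase gene, at 2.21 ± 0.417 and 4.27 ± 1.61, and Kif23, a kinesin of cytokinesis, at 1.33 ± 0.266 and 1.85 ± 0.290. Their limma adjusted p were 0.0595, 0.101 and 0.12, and CNV replicate 3 overlapped the untreated values in each.

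S phase genes differed by less. Pcna, the sliding clamp of DNA polymerases (ENSMUSG00000027342, mm10 chr2:132249162-132253314), measured 40.7, 41.5 and 45.3 FPKM in untreated replicates 1 to 3, 66.0, 64.8 and 53.7 in the CNV and 46.4, 42.3 and 44.6 in the BetP-Gel@Ran replicates, and rose by 0.53 ± 0.09 (SE, limma adjusted p = 0.0025). Tyms, thymidylate synthase, measured 2.12, 2.04 and 2.27 FPKM in untreated replicates 1 to 3, 5.21, 4.26 and 3.11 in the CNV and 2.79, 2.78 and 2.70 in the BetP-Gel@Ran replicates, and rose by 0.91 ± 0.16 (SE, limma adjusted p = 0.00259), the largest rise among these 13 genes. Tk1, thymidine kinase, measured 2.71, 2.13 and 2.73 FPKM in untreated replicates 1 to 3, 5.05, 5.44 and 3.29 in the CNV and 3.67, 2.09 and 2.58 in the BetP-Gel@Ran replicates, and rose by 0.81 ± 0.23 (SE, limma adjusted p = 0.0241). In all 3 genes the CNV libraries lay above the untreated ones. Rrm2, the small subunit of ribonucleotide reductase, was not called at 7.29 ± 0.819 FPKM (SD, n = 3) in untreated and 10.1 ± 2.20 in CNV libraries (limma adjusted p = 0.124).

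The 6 MCM genes, whose products form the ring of the replicative helicase, lay above untreated levels by 0.44 to 0.63 on the log2 scale, and 3 of the 6 were called. Mcm4 measured 6.37, 6.59 and 5.18 FPKM in untreated replicates 1 to 3, 11.4, 9.24 and 7.29 in the CNV and 6.33, 5.85 and 6.76 in the BetP-Gel@Ran replicates, and rose by 0.60 ± 0.16 (SE, limma adjusted p = 0.0168). In Mcm4 the CNV libraries lay above all others. Mcm6 and Mcm7 rose by 0.58 and 0.44. Mcm5 measured 7.57, 5.61 and 6.22 FPKM in untreated replicates 1 to 3, 12.4, 10.7 and 7.49 in the CNV and 6.63, 3.73 and 5.44 in the BetP-Gel@Ran replicates. Mcm2 measured 4.06, 3.85 and 3.21 FPKM in untreated replicates 1 to 3, 5.59, 5.28 and 4.32 in the CNV and 3.77, 2.21 and 3.51 in the BetP-Gel@Ran replicates. In Mcm2 the CNV libraries lay above all others, while in Mcm5, CNV replicate 3 lay below untreated replicate 1. Neither was called, nor was Mcm3, with limma adjusted p of 0.116 for Mcm2, 0.0649 for Mcm5 and 0.0741 for Mcm3. Among the regulators of G1, E2f1 measured 1.83, 1.77 and 1.51 FPKM in untreated replicates 1 to 3, 2.72, 2.38 and 2.69 in the CNV and 2.17, 1.56 and 1.96 in the BetP-Gel@Ran replicates, and rose by 0.58 ± 0.14 (SE, limma adjusted p = 0.0118). Ccnd1, cyclin D1, measured 26.3, 25.1 and 25.7 FPKM in untreated replicates 1 to 3, 42.7, 31.3 and 46.9 in the CNV and 49.8, 44.7 and 56.6 in the BetP-Gel@Ran replicates, and rose by 0.63 ± 0.15 (SE, limma adjusted p = 0.00917). Ccne1, cyclin E1, measured 3.50, 3.43 and 3.21 FPKM in untreated replicates 1 to 3, 4.10, 3.92 and 3.36 in the CNV and 4.29, 3.39 and 3.52 in the BetP-Gel@Ran replicates, with a difference of 0.16 ± 0.12 (SE, limma adjusted p = 0.332) that was not called. In E2f1 and Ccnd1 no CNV library overlapped the untreated ones, and in Ccne1 replicate 3 did.

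The CNV libraries differed among themselves. CNV replicate 3 was the lowest of its group in 38 of the 40 genes, including all 27 of mitosis. It lay above every untreated library in 33 of the 40, whereas CNV replicates 1 and 2 did so in all 40. Replicate 1 was the highest of the group in 11 of the 13 S phase genes and replicate 2 in 22 of the 27 mitosis genes. Without replicate 3, 37 of the 40 were called higher, and without replicate 1, 25. Of the 20482 genes tested, 3542 and 2825 were called higher in these fits. The 8 rises among G1 and S phase genes became 11 and 4 in these fits.

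Markers of several cell types moved with these differences. Of 12 microglia and macrophage markers 11 rose, and their summed level was 412 to 437 FPKM in untreated and 1476 to 2175 in CNV libraries. It was lowest in CNV replicate 3 among the CNV libraries, at 1476 FPKM, of which Lyz2 made 915. Csf1r, Cx3cr1, P2ry12 and Cd68 were lowest in CNV replicate 1 and the other markers of this list in replicate 3. Of 7 neutrophil markers 6 rose, with sums of 23.6 to 37.5 FPKM in untreated and 325 to 780 FPKM in CNV libraries, again lowest in CNV replicate 3. These sums came mostly from S100a8 and S100a9. Ly6g, the marker that was not called, had 1, 16 and 2 reads in CNV replicates 1 to 3. Of 6 genes of granulocyte precursors, which divide, 4 could be tested and 3 rose. Mpo was at 0 in all 9 libraries and Elane had 1 read in CNV replicate 3 and none elsewhere, while Prtn3, another granule protease gene, rose from 3, 9 and 6 reads in untreated to 21, 24 and 16 in CNV libraries. The sum of that list, 11.3 to 18.4 and 152 to 249.6 FPKM, came mostly from Ltf. Of 8 endothelial markers none rose and 1 fell, with sums of 12.5 to 13.5 FPKM in untreated and 10.7 to 12.5 FPKM in CNV libraries. Of 6 fibroblast markers none rose and 4 fell. Of 6 pigment epithelium markers none was called, and of 8 rod markers 7 fell, from sums of 2409 to 3520 FPKM to 906 to 1083 FPKM. All 6 skeletal muscle markers fell, from sums of 3560 to 3980 FPKM to 550.4 to 930 FPKM, and the BetP-Gel@Ran sums were 761 to 913 FPKM. Lens markers stood apart in untreated replicate 3, at 12183 FPKM against 279 and 325 FPKM in the other untreated libraries. They summed to 14.3 to 104 FPKM in CNV and 1017 to 4029 FPKM in BetP-Gel@Ran libraries, and 3 of 8 were called lower in CNV. Without untreated replicate 3, 29 of the 40 members were called higher in CNV, 24 of mitosis and 5 of G1 and S phase. In that fit 3200 of all genes were called higher. Of 6 markers of Muller glia and astrocytes 3 rose and 1 fell. Lymphocyte markers summed to at most 2.73 FPKM in any library. Among 6 genes of basal surface epithelium 4 fell and 1 rose, the basal keratin gene Krt14, which measured 282, 316 and 286 FPKM in untreated replicates 1 to 3, 1869, 2252 and 553 in the CNV and 318, 173 and 337 in the BetP-Gel@Ran replicates. Among the CNV libraries Krt14 was lowest in replicate 3, whereas the 4 genes that fell, Krt5, Krt12, Krt15 and Pax6, were highest there. The part of these cell types in the differences of the cell cycle genes was not tested.

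Wider lists of the pathway also had a larger median for mitosis than for replication. Of 40 other mitosis genes, 33 rose and 2 fell, with a median difference of 1.03. Cks1b, a small partner of CDK1, rose by 1.49, Smc2, a condensin subunit gene, by 1.86, Pbk, a mitotic kinase gene, by 1.45, and Anln, a cytokinesis gene, by 1.65. Of 34 other DNA replication genes, 15 rose and 1 fell, with a median of 0.42. Gins2, part of the replicative helicase, rose by 1.02, Clspn, a gene of the replication checkpoint, by 1.18, and Rfc4, a clamp loader subunit gene, by 0.60. Rpa1, which coats single-stranded DNA, fell by 0.33. Of 8 further G1 cyclins, kinases and MYC genes, 6 rose and 1 fell, led by Myc, a transcription factor gene of growth, at 3.37 ± 0.255 and 7.61 ± 0.830 FPKM (SD, n = 3). The gene that fell was Mycn, with 28, 41 and 34 reads in untreated and 2, 9 and 17 in CNV libraries.

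In the BetP-Gel@Ran libraries, most members lay between the untreated and CNV levels, and few differed detectably from CNV. The BetP-Gel@Ran mean was between the means of the other groups in 26 of 27 mitosis genes and in 8 of 13 of G1 and S phase. Against CNV, 6 of the 40 fell and none rose, while 4.76% of all genes tested were called lower and 3.27% higher. The median difference was -0.78 over the mitosis genes, -0.53 over the G1 and S phase genes and 0.0035 over all genes. In 15 of the 40 every BetP-Gel@Ran library lay below every CNV library, which held for 15.4% of all genes in that direction.

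The 6 genes that fell were Cenpa, Pcna, Cdk1, Bub1, Mcm5 and Bub1b, whose values are given above by replicate. Cenpa fell by 1.26 ± 0.24 (SE, limma adjusted p = 0.0214), and its highest BetP-Gel@Ran value, in replicate 1, was below the lowest CNV value. Bub1 fell by 1.36 ± 0.29 (SE, limma adjusted p = 0.0285) and Cdk1 by 1.07 ± 0.22 (SE, limma adjusted p = 0.026). Bub1b fell by 0.68 ± 0.17 (SE, limma adjusted p = 0.0427), and its BetP-Gel@Ran values lay above all untreated ones. Of the S phase genes, Pcna fell by 0.46 ± 0.09 (SE, limma adjusted p = 0.0244) and Mcm5 by 0.95 ± 0.24 (SE, limma adjusted p = 0.0424). For all 6 the groups did not overlap. Mki67 was not called, with a difference of -0.78 ± 0.29 (SE, limma adjusted p = 0.13), and BetP-Gel@Ran replicate 1 lay above CNV replicate 3. Top2a and Ccnb1 also overlapped between these libraries, with adjusted p of 0.124 and 0.108 (limma).

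These calls depended on single libraries. Without CNV replicate 3, 32 of the 40 were called lower, 22 of mitosis and 10 of G1 and S phase, when 1669 of all genes were. Without CNV replicate 1, CNV replicate 2, BetP-Gel@Ran replicate 2 or BetP-Gel@Ran replicate 3, none of the 40 was called. Calls were lost among all genes too, with 179, 185, 167 and 347 of the 20482 called lower in these fits. Without BetP-Gel@Ran replicate 1, 6 members and 607 of all genes were called lower. limma voom on the recovered reads called 14 of the 40 lower, when it called 1387 of all genes lower. The 14 were the same 6 and, beside them, Mcm2, Mcm3, Mcm4, Mcm7, Tyms, Rrm2, Nusap1 and Hmmr. The difference was negative in 38 of the 40 members, the exceptions being Ccnd1 and Kif23, neither of which was called. Some leukocyte markers moved too. Of 12 microglia and macrophage markers 6 fell, and of 7 neutrophil markers 6, with sums of 821 to 1036 and 15.2 to 124 FPKM in BetP-Gel@Ran libraries. None of the 6 lymphocyte markers tested was called. Of 8 endothelial markers 1 rose, Flt1 by 0.99, and of 8 lens markers 3 rose. No rod, fibroblast or skeletal muscle marker was called. Of the 6 genes of basal surface epithelium, Krt14 fell by 2.32 and 3 rose, among them Krt12 by 1.11 and Krt5, the keratin partner of Krt14, by 0.50. The part of these cells was not tested.

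**Figure D3:**
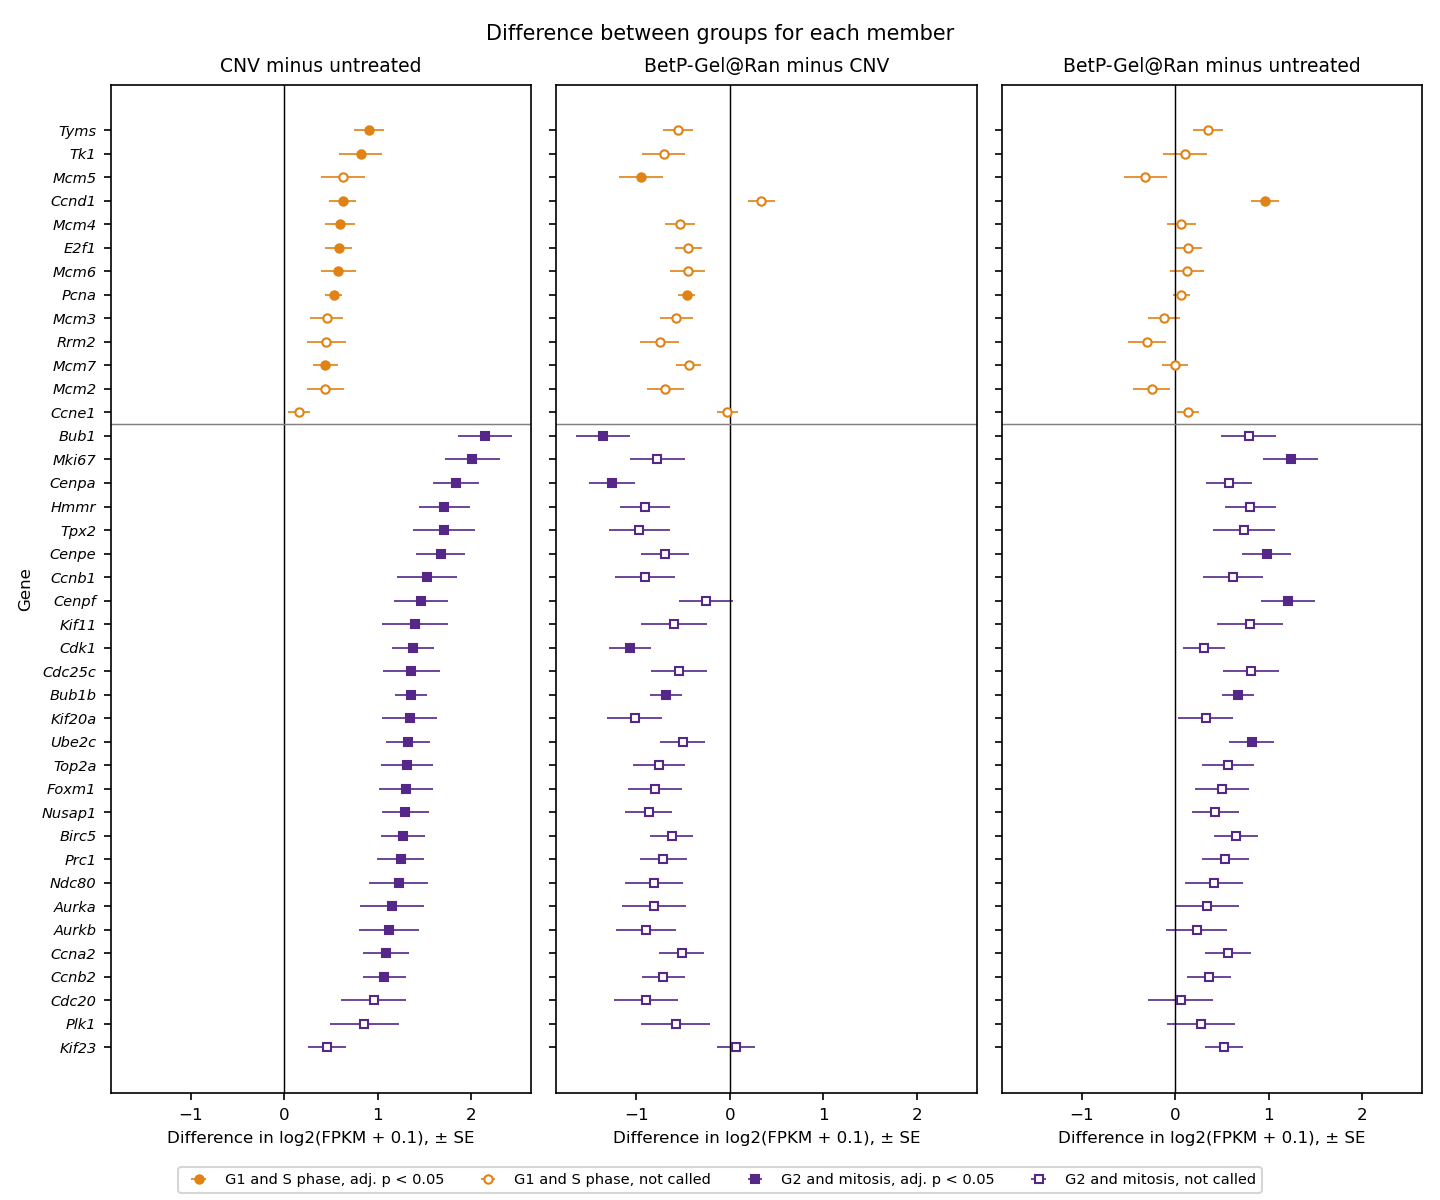
Difference between groups on the log2(FPKM + 0.1) scale with its SE (x axis) for each member (y axis), in the 3 comparisons, with filled symbols for called genes. In CNV minus untreated all 40 lie right of 0, in BetP-Gel@Ran minus CNV 38 lie left of 0, and in BetP-Gel@Ran minus untreated the 27 mitosis genes lie right of 0 while G1 and S phase genes lie on both sides.

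Against untreated libraries, BetP-Gel@Ran libraries were higher in 6 of the 40 genes, a share near that of all genes, and lower in none. Of all genes tested, 11.9% were called higher and 12.3% lower, 2430 and 2527 genes. With the FPKM divided by their sum in each library these became 2789 and 1494, and 6 members were again higher. The 6 were 5 genes of mitosis and Ccnd1. All 27 mitosis genes had a positive difference, with a median of 0.57, and those of G1 and S phase a median of 0.07 with 8 of 13 positive. Every BetP-Gel@Ran library lay above every untreated library in 21 of 27 mitosis genes and 2 of 13 others, Ccnd1 and Tyms, which held for 21.1% of all genes. Both comparisons that involve the gel group share libraries with the comparison of CNV and untreated, so their values stand side by side and are not independent.

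Mki67 had the largest difference, 1.24 ± 0.29 (SE, limma adjusted p = 0.0151), and its lowest BetP-Gel@Ran value was above its highest untreated value. Cenpf differed by 1.21 ± 0.29 (SE, limma adjusted p = 0.0164) and Cenpe by 0.98 ± 0.26 (SE, limma adjusted p = 0.0238). Ube2c differed by 0.82 ± 0.24 (SE, limma adjusted p = 0.0352) and Bub1b by 0.67 ± 0.17 (SE, limma adjusted p = 0.0196). BetP-Gel@Ran replicate 1 was the highest of its group in 35 of the 40 genes, 26 of them of mitosis. Without it only Ccnd1 was called. Without untreated replicate 1, 2 members were called, and without untreated replicate 3 or BetP-Gel@Ran replicate 2, 3 were. With single libraries left out, 1416 to 1931 of all genes were called higher. Ube2c was called in none of the 6 fits that left out a library, with limma adjusted p of 0.0624 to 0.105. limma voom on the recovered reads called 5 members higher, when it called 2518 of the 20482 genes tested higher. The 5 were Ccnd1, Bub1b, Cenpe and Cenpf, as above, and Hmmr (limma voom adjusted p = 0.0363). limma voom did not call Mki67 (adjusted p = 0.0513) or Ube2c (adjusted p = 0.0676). Its largest difference was that of Cenpf, 1.57, with 1.37 in Mki67. On the log2(FPKM + 0.1) scale Hmmr, Birc5, Cdc25c and Bub1 did not pass, with limma adjusted p of 0.0581, 0.0759, 0.0819 and 0.0823. Of the 13 genes of G1 and S phase none but Ccnd1 was called: Pcna differed by 0.07 ± 0.09 (SE, limma adjusted p = 0.663), and the 6 MCM genes by -0.32 (Mcm5) to 0.13 (Mcm6). Of 12 microglia and macrophage markers 10 were higher, with sums of 1036, 821 and 1024 FPKM in BetP-Gel@Ran replicates 1 to 3. Of 7 neutrophil markers 2 were higher. Of 8 endothelial markers 2 were higher and 1 lower, and of 6 Muller glia and astrocyte markers 2 were higher and 2 lower. Of 8 rod markers 7 were lower, as were all 6 skeletal muscle markers and 2 of 6 fibroblast markers. No lymphocyte marker was called. The part of these cell types in the differences of the members was not tested.

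The highest values of cyclin D1 and cyclin D2 were in the BetP-Gel@Ran group. Ccnd1 was higher in BetP-Gel@Ran than in untreated libraries by 0.96 ± 0.15 (SE, limma adjusted p = 0.00213), with no overlap, and its BetP-Gel@Ran mean of 50.4 ± 5.95 FPKM (SD, n = 3) was above the CNV mean of 40.3 ± 8.10, a difference that was not called (limma adjusted p = 0.182). Against untreated, Ccnd1 was called in each of the fits that left out a single library. Ccnd2, cyclin D2, measured 6.79, 7.92 and 7.70 FPKM in untreated replicates 1 to 3, 11.9, 10.4 and 13.0 in the CNV and 16.5, 16.7 and 15.7 in the BetP-Gel@Ran replicates, and was the gene of its list that was higher both against untreated, by 1.12 ± 0.10 (SE, limma adjusted p = 0.000152), and against CNV, by 0.47 ± 0.10 (SE, limma adjusted p = 0.0255). Ccnd3, the third D-type cyclin gene, was not called in any comparison, with differences of 0.05 in CNV against untreated, -0.24 in BetP-Gel@Ran against CNV and -0.19 against untreated. Cdk6, a kinase partner of D cyclins, was higher than in untreated libraries by 0.74. Cdk4, the other partner, fell against CNV by 0.58 and Myc by 1.14.

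**Figure D4:**
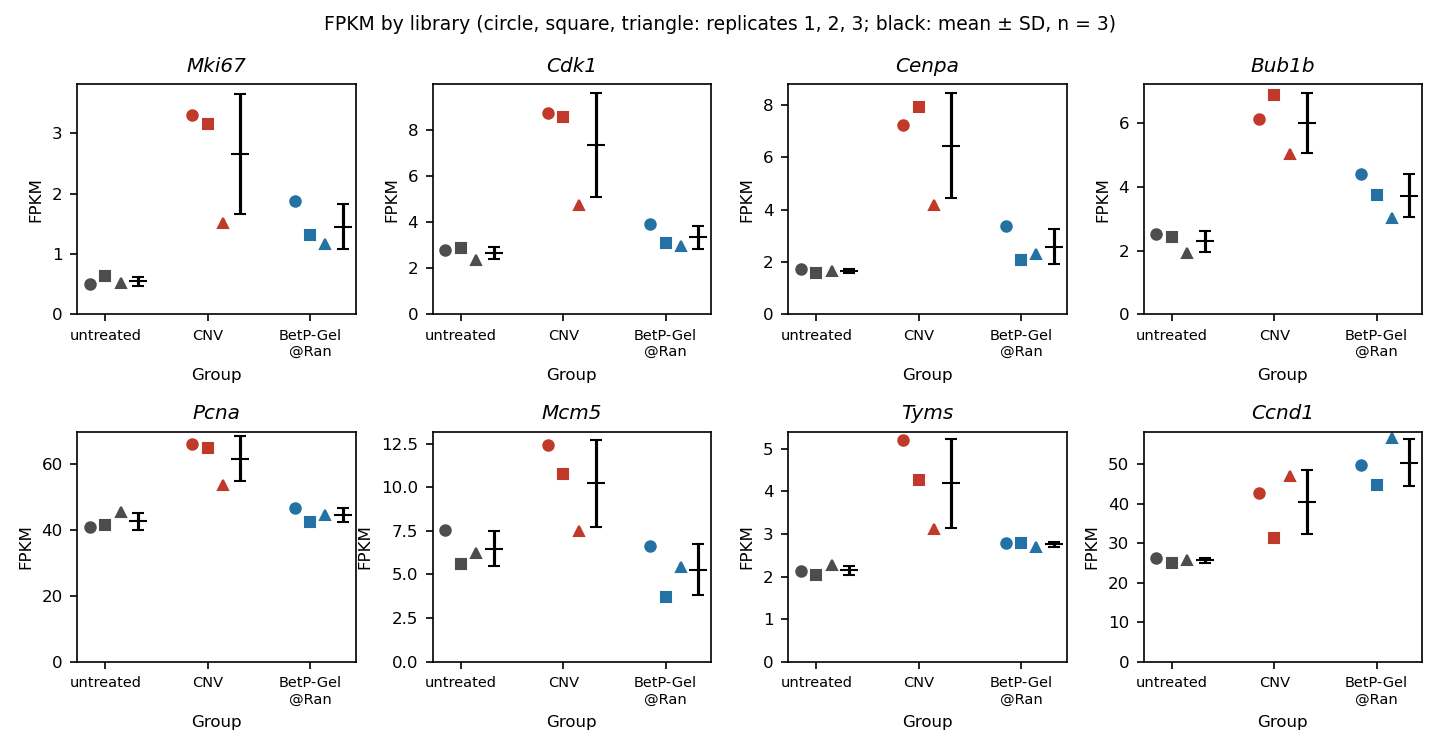
FPKM (y axis) of 8 members in each library, with replicates 1, 2 and 3 of each group (x axis) as circle, square and triangle, and the mean with its SD (n = 3) in black. All 3 BetP-Gel@Ran values lie above the untreated ones in each gene but Pcna and Mcm5, which overlap, and CNV replicate 3 is the lowest CNV library in all but Ccnd1.

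In BetP-Gel@Ran against CNV, 4.76% of all genes tested were called lower and 3.27% higher. In the wider lists, 5 of 40 other mitosis genes fell and 1 rose, and 8 of 34 DNA replication genes fell and none rose. Those with the smallest p were Cks1b (-0.92), Smc2 (-1.10), Pbk (-0.81) and Cdca5 (-0.84), a sister chromatid cohesion gene, and Cdc45 (-1.03), Gins2 (-0.90) and Dut (-0.42) of replication. Against untreated libraries, 11.9% of all genes tested were called higher and 12.3% lower. There, 8 of these mitosis genes were higher and 1 lower, and no replication gene was higher and 2 were lower, Dut and Rpa1. The higher ones included Smc4, a condensin subunit gene, by 0.63, and Cdkn3, a CDK phosphatase gene, by 0.94. Of 8 genes of the G1 list, 2 were higher and none lower against untreated, and 1 rose and 2 fell against CNV.

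Some values could include reads of other genes. The kit named in the labels does not mark strand, and 6 members overlap a gene of at least 1 FPKM on the opposite strand: Ccnd1 with Oraov1, Mcm7 with Cops6 and Ap4m1, Ccna2 with Exosc9, Cdc20 with Elovl1, Kif20a with Cdc23 and Nusap1 with Oip5. Rows named as copies of Pcna, Tyms, Ccnb1 and Ccnb2 reached at most 1.33 FPKM in any library.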

How the data were processed

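The authors deposited FPKM per gene for 9 libraries of mouse RNA; HTSeq 0.6.0 and build mm10 are named in the submitters' processing notes, and for the aligner: not given in the sources used here. Gene lengths in the deposited table turned the FPKM into whole reads for 100% of values up to 1000 reads (tolerance 0.05 reads). Genes with a mean of at least 0.1 FPKM over all 9 libraries entered 1 limma 3.58.1 fit (R 4.3.3, statmod 1.5.0; trend and robust options) of log2(FPKM + 0.1) on group. Pseudocount and filter are low because many members lie under 1 FPKM. P-values are two-sided, adjusted by Benjamini-Hochberg within each comparison. An exact permutation test of 3 against 3 libraries cannot go below p = 0.10 and was not used. limma voom on the recovered reads, scaled by a trimmed mean of M values, called 7524 genes in CNV against untreated, 2452 in BetP-Gel@Ran against CNV and 5222 in BetP-Gel@Ran against untreated. Both fits were tested on simulated data. Alternatives covered pseudocount, filters, scaling, the libraries and options of the fit, and leaving out each library. Values by library are given for up to 6 called members per phase and comparison with the smallest p, for every member called lower in BetP-Gel@Ran against CNV, and for Mki67, Top2a, Cdk1, Ccnb1, Pcna, Mcm2, Mcm5, Ccnd1, Ccne1 and E2f1. Wider lists name up to 4 called genes each way; Krt14, Cdkn1a and the other marker genes named were picked after their values were seen. Members and lists were chosen with earlier results of these data known. Libraries of a group differed beyond counting noise (chi-square per gene from 7.28 to 36.8), so none was counted as a copy.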

Additional observations from a re-analysis of the deposited data

How the results depend on the processing

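In CNV against untreated, 25 to 37 of the 40 members were higher when single libraries were left out. Of G1 and S phase 4 to 11 were, of mitosis 21 to 26, and of all genes 2825 to 3542. With limma voom on recovered reads 34 members and 3787 of all genes were higher. No alternative reversed a member's call. BetP-Gel@Ran against CNV was the unstable comparison. With single libraries left out, 33 to 1421 of all genes were higher and 167 to 1669 lower, and 0 to 32 members were lower, 0 to 10 of G1 and S phase and 0 to 22 of mitosis. With no filter on low values, 357 genes were higher and 629 lower, and 1 member of G1 and S phase was lower. A filter of 1 FPKM in at least 3 libraries gave 4 of G1 and S phase, when 1092 of all genes were lower. One of a mean of 1 FPKM gave 10 members, 4 of G1 and S phase, when 1063 of all genes were. The fit of only the 2 groups gave 321 genes higher and 446 lower, and 0 members, 0 of either phase. Without trend and robust options, 228 genes were higher and 437 lower, and 1 member, of mitosis, with 0 of G1 and S phase. Array weights gave 1251 and 1593 genes and 25 members, 9 of G1 and S phase and 16 of mitosis. limma voom gave 1065 genes higher and 1387 lower, and 14 members lower, 8 of G1 and S phase. In BetP-Gel@Ran against untreated, leaving out single libraries gave 1416 to 1931 genes higher and 1589 to 2198 lower, and 1 to 5 members, 0 to 4 of mitosis. The fit of only these 2 groups gave 11 members higher, 2 of G1 and S phase and 9 of mitosis, when 2355 of all genes were higher. FPKM divided by its sum gave 1494 genes lower, and the median difference of all genes was 0.0831, against 0.0013 in the main fit. Replicate numbers did not pair the libraries: deviations of same-numbered libraries correlated at -0.0796 to 0.0398. With the replicate block, 309 genes were higher and 577 lower in BetP-Gel@Ran against CNV, with 1 member of G1 and S phase lower, and 34, 5 and 8 members were called in the 3 comparisons. The cause of these shifts was not tested. Members with values under 1 FPKM rested on as few as 18 reads in a library.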

Other observations

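Genes that hold the cell cycle back did not move as a block. Of 18 such genes, 8 were higher and 3 lower in CNV than in untreated libraries, with a median of 0.20 on the log2 scale. Of all genes tested, 17.8% were called higher and 16.9% lower in that comparison. Cdkn2a, the locus of the CDK4 and CDK6 inhibitor p16 and of ARF, which share exons, measured 0.0503, 0.0480 and 0 FPKM in untreated replicates 1 to 3, 1.16, 1.70 and 0.961 in the CNV and 2.29, 0.709 and 1.11 in the BetP-Gel@Ran replicates. It had 1, 1 and 0 reads in the untreated, 27, 35 and 21 in the CNV and 47, 15 and 22 in the BetP-Gel@Ran libraries, and was called higher in both groups against untreated (limma adjusted p = 0.000287 and 0.000678). Untreated libraries held at most 1 read, so no fold is given. Cdkn1c, the inhibitor p57, fell in CNV by 1.43 ± 0.18 (SE, limma adjusted p = 0.000367) and was lower in BetP-Gel@Ran than in untreated libraries by 1.03. Cdkn1a, the inhibitor p21, measured 33.7, 29.4 and 33.3 FPKM in untreated replicates 1 to 3, 36.7, 35.4 and 35.8 in the CNV and 37.2, 31.5 and 29.4 in the BetP-Gel@Ran replicates, with no call in either comparison with untreated. Trp53, which encodes p53, and its target Ccng1 rose in CNV by 0.59 and 0.60, and were lower in BetP-Gel@Ran than in CNV libraries by 0.53 and 0.55.

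Pttg1 and Spc25 went against the other mitosis genes. Pttg1, the securin that holds back separase, measured 20.6, 20.5 and 20.7 FPKM in untreated replicates 1 to 3, 8.23, 9.17 and 5.68 in the CNV and 5.48, 4.04 and 4.68 in the BetP-Gel@Ran replicates. It was lower than in untreated libraries by 1.44 ± 0.17 (SE, limma adjusted p = 0.000288) in CNV and by 2.11 ± 0.17 (SE, limma adjusted p = 0.000111) in BetP-Gel@Ran libraries. Spc25, a partner of NDC80 at the kinetochore, measured 23.1, 18.4 and 20.6 FPKM in untreated replicates 1 to 3, 13.6, 9.72 and 12.1 in the CNV and 15.7, 19.6 and 21.3 in the BetP-Gel@Ran replicates, and fell in CNV by 0.81 ± 0.15 (SE, limma adjusted p = 0.00322), whereas Ndc80 rose. Both genes stood at 18.4 FPKM or more in untreated libraries, while the median untreated mean of the 27 mitosis members was 1.55 FPKM.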
